A study of Drosophila melanogaster with 2 samples.

Results

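The insulator protein genes of Drosophila melanogaster were taken as 10 genes listed by name: Chro, Cp190, BEAF-32, CTCF, su(Hw), mod(mdg4), pita, ZIPIC, Ibf1 and Ibf2. All 10 symbols were found among the 13945 protein-coding genes annotated on 2L, 2R, 3L, 3R, 4 and X. The values came from chromatin immunoprecipitation and sequencing (ChIP-seq) of whole embryos, 0 to 24 h old, from a single transgenic strain in which the zinc finger protein CG11247 was fused to enhanced green fluorescent protein (eGFP). The precipitation used an antibody against GFP, per the samples' descriptions, while a separate label gives CG11247 as the antibody's target. There was 1 group with 2 biological replicates of 1 library each, and chromatin had been sonicated to 200 to 800 bp. The embryos were a mixture of all cell types and stages of that window, so a peak does not say in which cells the protein lay. The control experiment that the labels name was not analysed here, so CG11247 at a site cannot be told apart from material that precipitates with any antibody. The numbers of reads are unknown.

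Insulators are DNA elements that separate neighbouring chromatin domains and keep an enhancer from acting on the wrong promoter. In flies they are bound by several DNA-binding proteins. CTCF, Su(Hw), Pita and ZIPIC bind through zinc fingers, Ibf1 and Ibf2 through BED fingers, and BEAF-32 binds clusters of the word CGATA. Cp190 and Mod(mdg4) carry BTB domains and act largely as shared partners of the DNA-binding proteins. Chro is a chromodomain protein of polytene interbands that occurs with BEAF-32 at many promoters. The question asked of the peak lists was where, and how strongly, CG11247-eGFP was detected at the genes that encode these proteins.

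The DNA at 5 of the 7 passing peaks is given first, because the later description refers to words in it. The peaks at BEAF-32 and pita are not shown. Each stretch was read from the RefSeq genome of release 6 (dm6) on the strand of the insulator gene, 5′ to 3′. Capitals mark words searched for as described later, and a capital TATCG is CGATA on the other strand. For Chro only 30 bases around the summit are shown (chr3L:22878888-22878917), since the summit lies in a transcribed leader. For Cp190 the stretch is the space up to the start of the divergent gene CG4338 with the first 4 transcribed bases (chr3R:15275238-15275521). For CTCF it is the first intron, which holds the summit (chr3L:7356460-7356580). For mod(mdg4) both are intron sequence just upstream of nested start sites, named distal (chr3R:21365489-21365608) and proximal (chr3R:21373576-21373735) by their distance from the mod(mdg4) start.
Chro: ggactgcagttagtttaaagcTATCGacag
Cp190: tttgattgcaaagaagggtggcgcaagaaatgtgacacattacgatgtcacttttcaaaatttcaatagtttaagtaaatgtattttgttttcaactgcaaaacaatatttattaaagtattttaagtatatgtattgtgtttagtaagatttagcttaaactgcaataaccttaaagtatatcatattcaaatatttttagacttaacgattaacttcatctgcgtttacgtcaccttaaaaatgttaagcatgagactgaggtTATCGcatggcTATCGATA
CTCF: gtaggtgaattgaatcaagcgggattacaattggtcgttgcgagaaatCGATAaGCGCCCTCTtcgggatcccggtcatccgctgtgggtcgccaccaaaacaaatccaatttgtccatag
mod(mdg4) distal: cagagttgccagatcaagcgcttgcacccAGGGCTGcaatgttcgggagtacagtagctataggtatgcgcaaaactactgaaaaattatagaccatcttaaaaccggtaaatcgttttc
mod(mdg4) proximal: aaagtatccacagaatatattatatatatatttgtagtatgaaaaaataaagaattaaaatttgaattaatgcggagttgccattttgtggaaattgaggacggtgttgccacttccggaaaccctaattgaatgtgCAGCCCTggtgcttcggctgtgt

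Summits at 5 of the 10 genes passed within 500 bp of a transcription start site (TSS), at Chro, Cp190, BEAF-32, pita and CTCF. A summit is called passing when its peak is in the authors' thresholded list of the pooled reads, which held 4495 peaks, all with an irreproducible discovery rate (IDR) of at most 0.01. The IDR measures how well a peak's rank is kept between inputs. The longer list of ranked peaks, 137752 in number, gave the summits that did not pass. Over the genome, 10966 protein-coding genes had a ranked summit at that distance, and it passed at 2599 of them, or 23.7%. Of the 10 insulator genes 8 had such a ranked summit, and Ibf1 and Ibf2 had none. With the gene bodies added, mod(mdg4) joined the 5, and the share over all genes was 27.7% (3363 of 12152). The genes were picked with earlier results of these data in view, so these counts are descriptions with no test.

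In all, 81 ranked summits lay at the 10 genes, of which 7 passed, or 8.64%. Over all protein-coding genes, with a summit counted once for each gene it lay at, 4.32% of 110868 passed, and of all ranked peaks 3.26% did. The 7 had pooled signals of 111.3 to 1272, and the other 74 had 2.26 to 59.0 with a median of 28.4. Passing follows the rank of the signal closely, so the gap between these ranges is no finding. The signal is the authors' own score for each peak. Its scale differs between lists, so values are compared only within one. Of the 74 summits that did not pass, 44 lay in coding exons (59.5%), against 32.3% over all protein-coding genes counted in the same way. How much of each gene is coding was not taken into account, so this difference is no finding about the members. The highest −log10 IDR among the 74 was 1.62, below the limit of 2.

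**Figure D1:**
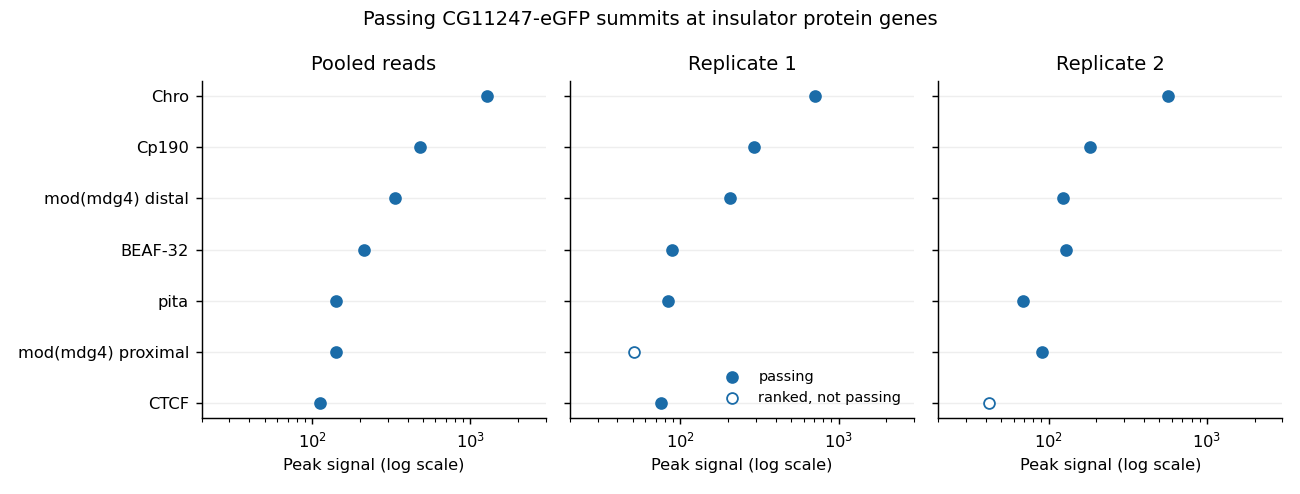
Signal of the 7 passing summits in the ranked lists of the pooled reads, replicate 1 and replicate 2 (x axis, log scale, no unit; each list has its own scale). Filled points passed in that list and open points were ranked without passing; CTCF was open in replicate 2, with a signal of 42.2, and the proximal mod(mdg4) summit in replicate 1, with 50.6.

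Chro had the strongest peak of the group by a wide margin. The peak lay at 22878744 to 22879046 on 3L, with the summit at 22878902, and had a pooled signal of 1272, rank 20 of the 4495 passing peaks. The signal was 710.2 in replicate 1 (rank 20 of 3010 passing peaks) and 570.5 in replicate 2 (rank 24 of 2695). The replicates' summits were 20 and 2 bp from the pooled one. Only 0.210% of the 10966 genes had a stronger promoter summit. In its own gene the peak was 44.1 times as high as the next ranked summit, which had 28.9 in a coding exon.

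The Chro summit was 82 bp downstream of the first of 3 annotated start sites, inside the 5′ UTR of the longest leader, and between that start and the next. Ssl1, a gene for a subunit of the general transcription factor TFIIH, starts on the other strand 105 bp from the first Chro start. The summit was 187 bp upstream of the Ssl1 start, so the peak cannot be given to one gene of the pair. The printed site holds a CGATA word centred 8 bp from the summit. The genes under the peaks ranked just above and below were Fkbp14 (signal 1310, 110 bp from its TSS) and GstE13 (1238.5, 71 bp).

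Cp190 followed, with its summit between divergent starts. Its pooled signal was 478.5 (15275229 to 15275520 on 3R, rank 205), with 290.0 in replicate 1 (rank 164) and 183.1 in replicate 2 (rank 292). The summit was 96 bp upstream of the Cp190 TSS and 185 bp upstream of that of CG4338, whose start is 281 bp away. Of all genes with a ranked promoter summit 1.82% had a stronger one. The other 10 ranked summits of Cp190, all within the gene, reached at most 49.0. The printed stretch between the starts had a GC content of 28.9%, and the bases within 50 bp of the summit had 26.7% against 54.0% in windows of that width centred 500 bp to each side. Peaks next in rank were near Ing5 (478.2, 120 bp from its TSS) and 1473 bp from the TSS of zfh1 (479.6).

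BEAF-32 had a passing summit 57 bp upstream of the first of its 3 start sites. The peak lay at 14770240 to 14770583 on 2R, with a pooled signal of 213.3 and rank 946. It was the only passing promoter summit of the 5 with a higher signal in replicate 2 (128.7, rank 602) than in replicate 1 (88.8, rank 1474). The lists differ in scale and length, so no direction is read from this. A second ranked summit, 57 bp upstream of the start farthest downstream, had 56.3 and a −log10 IDR of 1.62, so it did not pass. The passing summit also lay in an exon of the antisense RNA gene asRNA:CR42254, 142 bp upstream of one of its starts. CG33199 (213.4) and MED6 (213.1), a Mediator subunit gene, held the peaks next in rank.

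The peaks at pita and CTCF were weaker. At pita the signal was 141.1 (23554452 to 23554795 on 2R, rank 1797), with 83.1 in replicate 1 (rank 1631) and 69.2 in replicate 2 (rank 1677). The pita summit was 88 bp downstream of the first TSS, in the 5′ UTR. At CTCF the signal was 111.3 (7356403 to 7356746 on 3L, rank 2462). It was 75.1 in replicate 1, where it passed at rank 1865. In replicate 2 it was 42.2, rank 4644 of 125735 ranked peaks, with a −log10 IDR of 0.183, and it did not pass. Replicate 2 alone therefore did not give the CTCF call. The peak was also in the authors' conservative thresholded list. In another ranked list of theirs over both replicates, the strongest CTCF promoter signal was 111 and the highest −log10 IDR there was 2.6.

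The CTCF summit was 138 bp downstream of the only annotated TSS, in the first intron and in an exon of the antisense RNA gene asRNA:CR45822. Within that intron a match to the CTCF core AGNNGGCGC was centred 53 bp from the summit, next to a CGATA word 45 bp from it. An annotated transposable element began 307 bp from the summit.

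**Figure D2:**
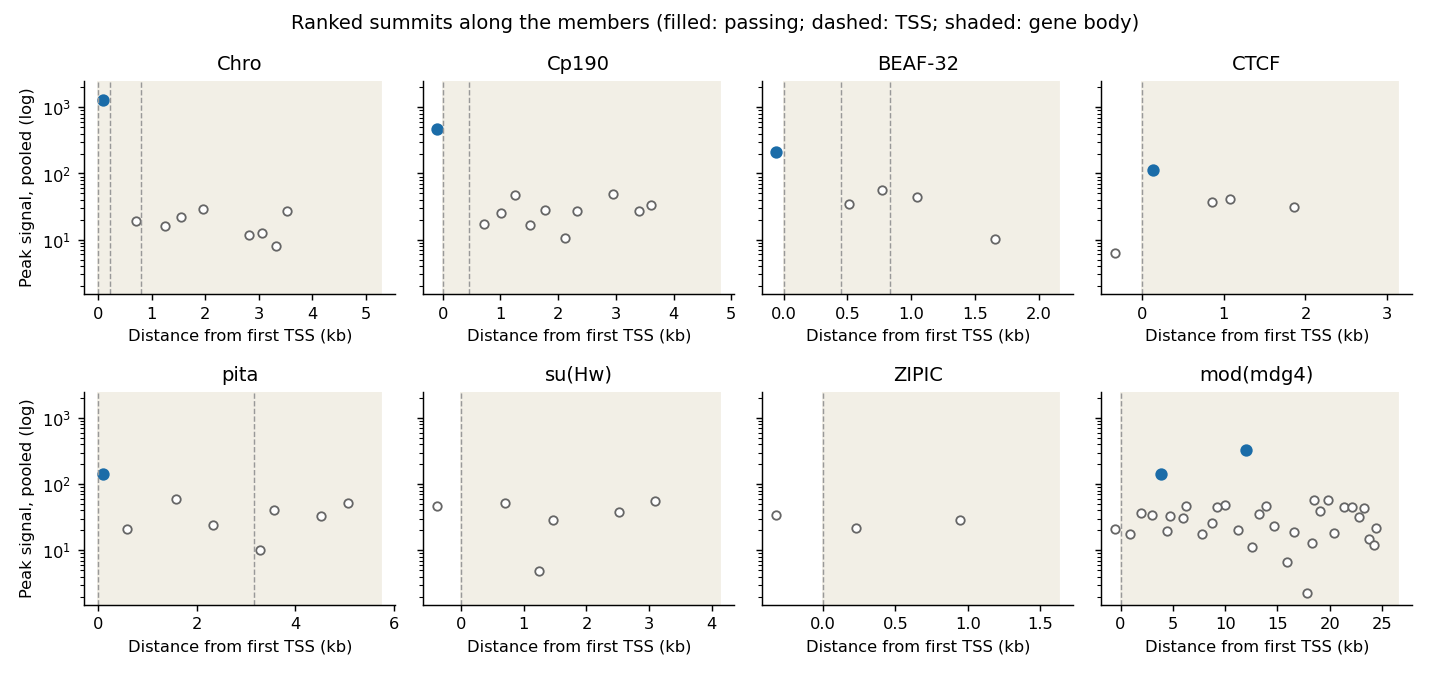
Every ranked summit of the 8 genes that had one, by distance from the first TSS in the direction of transcription (x axis, kb) and pooled signal (y axis, log scale). Filled points passed, dashed lines are annotated start sites and shading is the gene body; at Chro, Cp190, BEAF-32, CTCF and pita the filled point is within 138 bp of the first start, and at mod(mdg4) both lie inside the gene.

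In mod(mdg4) both passing summits lay inside the gene, at starts of nested transcripts. The gene spans 26556 bp on 3R, and many of its proteins are made by joining a shared leader part to a separately transcribed last part, a process called trans-splicing. The annotation lists these separate precursors as 23 genes named pre-mod(mdg4), 14 on the strand of mod(mdg4) and 9 on the other, with 7 distinct start sites. The distal summit came after those of Chro and Cp190 in signal, with 333.6 (21365281 to 21365624, rank 428), with 204.9 in replicate 1 (rank 357) and 123.0 in replicate 2 (rank 652). It was 11948 bp from the mod(mdg4) start. It was 35 bp downstream of a start of pre-mod(mdg4)-E and 156 bp upstream of a start on the other strand shared by 7 precursors, pre-mod(mdg4)-U, -V, -W, -X, -Y, -AD and -AE. It was 163 bp upstream of a start of pre-mod(mdg4)-AB and pre-mod(mdg4)-C. In all, 10 precursor genes had a start within 500 bp of it.

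The proximal summit, 3837 bp from the mod(mdg4) start, had a signal of 140.7 (21373392 to 21373735, rank 1806). It was 11 bp downstream of the start shared by pre-mod(mdg4)-AA, pre-mod(mdg4)-N and pre-mod(mdg4)-O. In replicate 2 it passed with 91.0 (rank 1087). In replicate 1 it had 50.6 and a −log10 IDR of 1.91, just short of the limit. Both upstream stretches printed for mod(mdg4) hold the word AGGGCTG, the core of the ZIPIC site, on opposite strands. These stretches were chosen after the values were seen, and neither contains its summit. In the proximal stretch the word is centred 31 bp from the summit. In the distal one it is over 100 bp away, outside the window used for the motif search. Within 100 bp, 2.99% of all passing summits had this word, and 1.55% of the non-passing ones did. No link to ZIPIC is read from these 2 matches.

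The other starts within mod(mdg4) showed far less. A start shared by 8 precursors, 17633 bp into the gene, had a strongest ranked summit of 2.26 within 500 bp. The start of pre-mod(mdg4)-T and pre-mod(mdg4)-Z had no ranked summit. A second start of pre-mod(mdg4)-U and pre-mod(mdg4)-V had 44.9, with a −log10 IDR of 0.730. Over the 23 precursors, 13 had a passing summit within 500 bp of a start and 10 had not. Of the 13, 10 were at the distal summit and 3 at the proximal one, so they share starts and peaks and are not independent. Over all 13945 protein-coding genes 18.6% had a passing promoter summit. At the mod(mdg4) start itself the strongest ranked summit had 20.8, 495 bp upstream, and 88.1% of genes with a ranked promoter summit had a stronger one. Neither replicate's list had a summit within 500 bp of that start, nor did the authors' other ranked list over both replicates. Replicate 1 had a summit just beyond that distance, at 21377920, with 24.3 and a −log10 IDR of 0.124, in a peak that overlaps the pooled one. Long genes often held a passing summit: of 979 protein-coding genes of at least 20000 bp with a ranked summit, 58.8% had one at a promoter or in the body, and 33.0% had it in the body only.

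**Figure D3:**
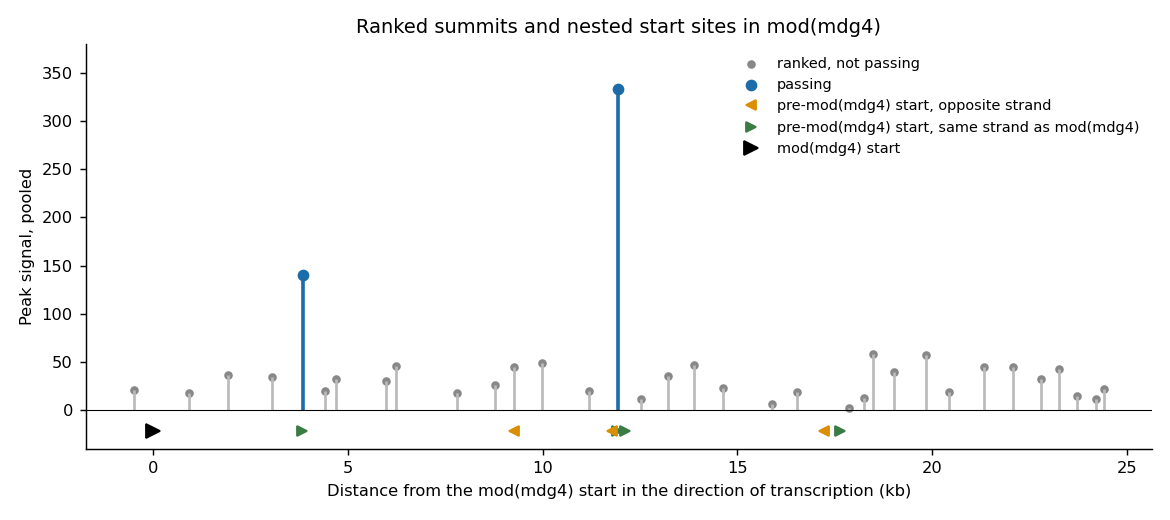
Pooled signal of the 34 ranked summits of mod(mdg4) (y axis) against distance from its TSS in the direction of transcription (x axis, kb), with arrowheads below for the start of mod(mdg4) and the 7 starts of pre-mod(mdg4) genes. The passing summits, 140.7 and 333.6 in signal, stand at nested starts, and the other 32 summits reach at most 58.1.

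No summit passed at su(Hw), ZIPIC, Ibf1 or Ibf2. At su(Hw), the gene of the gypsy insulator protein, the promoter summit had 47.5 (381 bp upstream of the TSS, −log10 IDR 0.865), and 47.7% of genes had a stronger one. It had 41.3 in replicate 1, while replicate 2 had no ranked summit within 500 bp of the TSS. The strongest of its 6 ranked summits, 55.0, lay in a coding exon. Polr2I, an RNA polymerase II subunit gene, starts 500 bp away on the other strand. The promoter summit of 47.5 was nearer to the Polr2I start, at 119 bp, so it cannot be given to su(Hw) alone. At ZIPIC the promoter summit had 34.1, 322 bp upstream of the TSS, and the strongest promoter signals were 18.2 and 25.5 in replicates 1 and 2. Its 3 ranked summits differed little, from 21.4 to 34.1.

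Ibf1 and Ibf2 start 463 bp apart on opposite strands. The pooled list and that of replicate 1 had no ranked summit at either gene, and neither gene had a passing summit in replicate 2. There the strongest ranked summit, shared by both genes, had 15.7 and lay between their starts, and Ibf1 had a weaker one in its body. The authors' other ranked list over both replicates, which holds every peak of the conservative list, also held a summit shared by both genes, with a signal of 21.5 and a −log10 IDR of 0.0859. Of all protein-coding genes, 21.4% (2979 of 13945) had no ranked summit within 500 bp of a TSS. An absent summit does not show that the protein was absent at this depth, which is unknown.

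The order of the 7 passing summits was partly kept between the replicates. In both, Chro came first and Cp190 second. The distal mod(mdg4) summit (204.9) stood above BEAF-32 (88.8) in replicate 1 and just below it in replicate 2 (123.0 against 128.7). CTCF was last in replicate 2, and the proximal mod(mdg4) summit was last in replicate 1 but above pita and CTCF in replicate 2. Each replicate gives 1 value on its own scale, so these places have no error.

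Of the 5 passing promoter peaks, 4 overlapped a passing peak of both replicates by at least 1 bp, CTCF being the exception. Over all 2079 passing summits at protein-coding promoters the share was 53.9%. Alone, replicate 1 gave a passing promoter summit at 5 of the 7 insulator genes with a ranked one there, against 19.3% of 10105 genes. Replicate 2 gave one at 4 of 8, against 17.4% of 10876.

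The strongest promoter summit had a median signal of 126 over the 8 genes that had one, against 45.9 over all 10966 genes. The members spread over the whole range. Chro, Cp190 and BEAF-32 were above the 90th percentile of 173.8, pita and CTCF were between it and the 75th percentile of 77.3, and su(Hw), ZIPIC and mod(mdg4) were near or below the median. Peaks of Chro and Cp190 were 303 and 292 bp wide, while the other 5 passing peaks had the width of 344 bp shared by 79.9% of passing peaks. Over the passing list, narrower peaks (19.8%) had a median signal of 319 and those of 344 bp had 104.

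**Figure D4:**
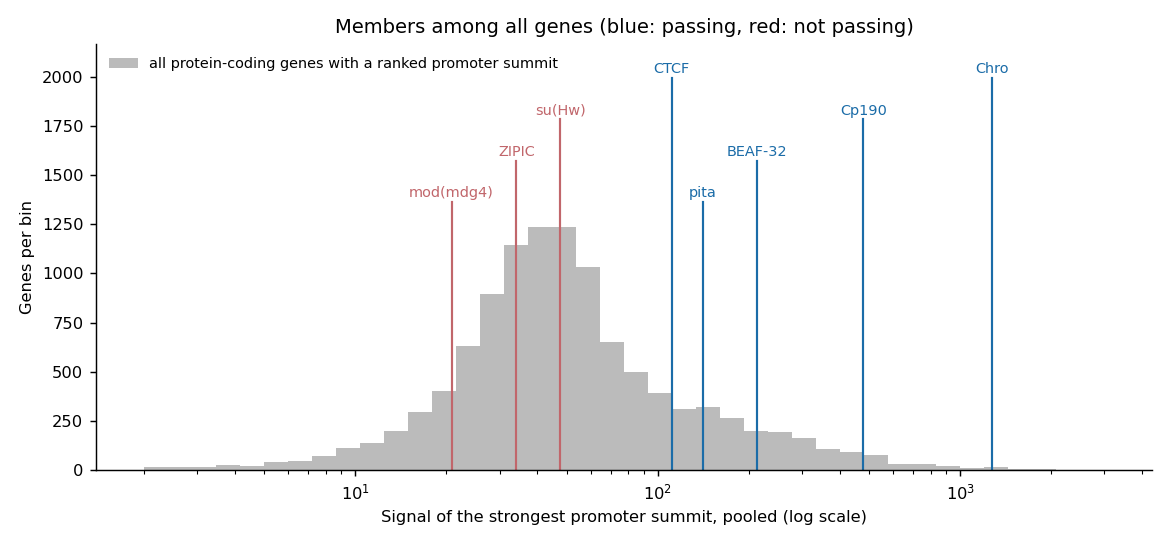
Strongest promoter summit of each insulator gene (vertical lines, blue passing and red not passing) on the distribution over 10966 protein-coding genes with a ranked promoter summit (grey bars, genes per bin; x axis is pooled signal, log scale). Chro at 1272 is far in the upper tail and su(Hw), ZIPIC and mod(mdg4) stand in or below the bulk around the median of 45.9.

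Sites of the insulator proteins themselves were sought within 100 bp of the passing promoter summits, on both strands. CGATA, the BEAF-32 word, was found at 4 of 5, at Chro, Cp190, CTCF and pita, and not at BEAF-32. It is a short word: 38.9% of all 2079 passing promoter windows held it, 22.2% of windows centred 500 bp to each side, and 19.5% of windows at ranked summits that did not pass. The longer element TATCGATA, known as the DNA replication-related element and bound by Dref and BEAF-32, was found at Cp190 only, across its TSS and 95 bp from the summit, and 2 of the 3 CGATA matches there overlap it. All passing promoter windows had TATCGATA in 7.94% and the flanks in 1.2%.

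The CTCF core AGNNGGCGC was found at the CTCF gene only (3.42% of passing promoter windows, 2.41% of flanks). Neither the Su(Hw) core TGCATAC (2.55% against 2.09% of flanks), nor the ZIPIC core AGGGCTG (5.19% against 1.35% of flanks), nor the M1BP word GGTCACACT (3.13% against 0.529%) was found at any of the 5. The same held for GAGAG (23.5% against 24.1%), CAGCTG (13.7% against 11.4%) and the Zelda word CAGGTAG (0.625% against 1.49%). With the summits of replicate 2 alone, GAGAG was found at 1 of 4. In windows from 250 bp before to 50 bp after all 19253 start sites of protein-coding genes, which are longer, CGATA was in 45.7%, TATCGATA in 7.98%, AGNNGGCGC in 2.90%, AGGGCTG in 3.46%, TGCATAC in 3.29%, GGTCACACT in 5.23%, GAGAG in 33.2%, CAGCTG in 17.9% and CAGGTAG in 1.69%. These matches describe letters in a window and show no binding.

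At all 5 promoter summits the GC content, taken within 50 bp, was below that of the flanks. It was 26.7% at Cp190 (flanks 54.0%), 28.7% at pita (42.1%), 32.7% at Chro (41.1%), 34.7% at BEAF-32 (55.4%) and 43.6% at CTCF (47.0%). The medians over all passing promoter summits differed in the same direction, 38.6% and 45.0%, so lower GC at the summit is not particular to these genes. The share of all passing promoter summits below their flanks was not counted. The CTCF summit was above the general summit median. At the distal mod(mdg4) summit the values were 31.7% and 51.5%, and at the proximal one both were 40.6%.

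Other genes for architectural and promoter proteins, 24 in number, were read in the same way. A passing promoter summit was found at 10 of the 24, while 17 had a ranked one. Of the insulator genes 5 passed and 8 had a ranked one, and over all 10966 genes with a ranked one 23.7% passed. The strongest promoter summit had a median signal of 160 over the 17, above the 126 of the insulator genes and the 45.9 over all genes. The strongest were Trl, which encodes GAGA factor (366.7, 209.0 and 157.5 in pooled, replicate 1 and replicate 2), row (282.3), shep (263.1) and JIL-1, a histone H3 kinase gene (250.6). Dref (191.3), pzg (178.8), fs(1)h (178.6), the condensin gene Cap-H2 (178.4), M1BP (159.9) and l(3)mbt (113.2) also passed. In each replicate alone 9 of the 24 passed, and l(3)mbt was the one lost in both. Over all genes with a ranked promoter summit, 19.3% passed in replicate 1 and 17.4% in replicate 2. None of these 10 reached the signal of Chro or Cp190. Of the 14 that did not pass, 7 had no ranked promoter summit in the pooled list.

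None of the insulator genes lay near the CG11247 gene itself. CG11247 is on 3L, and the closest member on that arm, Chro, is 1140 kb away.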

How the data were processed

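CG11247-eGFP ChIP-seq peak lists from fly embryos (2 replicates) were on the dm6 assembly, per the labels. The peak signal is a score that the authors deposited with each peak, with no stated scale. The aligner and the peak caller were not given in the sources used here. Ranked lists also carry the −log10 of the global IDR, as the authors deposited it. Each pooled or replicate list is what the listing deposited with the files calls it. Every peak of the thresholded lists was also in the ranked list of the same reads, with a −log10 IDR of at least 2, while 151 ranked pooled peaks past that limit are absent from the pooled thresholded list. Genes came from Ensembl release 115 and bases from the RefSeq genome, release 6, whose chromosome ends no peak passed. A summit was at a promoter within 500 bp of any TSS of the gene. Replicate signals are those of the highest overlapping peak with a summit within 100 bp. Calculations used Python 3.11.15, numpy 2.4.6 and pandas 2.3.3, and the counting was tested on simulated data. The insulator genes, the other gene list and the motifs were chosen with earlier results of these data known, so no test was run on them. The text names all 10 members, the other listed genes with a passing promoter summit, neighbours with a start within 500 bp of a member's passing summit, and the genes next in rank to the 3 members with the highest promoter signal. The length of 20000 bp, the closer look at the mod(mdg4) precursors and the stretches printed were chosen after the values were seen. Alternatives covered the peak list, each replicate, the distance, the overlap and the motif window.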

Additional observations from a re-analysis of the deposited data

How the results depend on the processing

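Chro, Cp190, BEAF-32 and pita kept a passing promoter summit, and mod(mdg4) a passing one in its body, in the conservative list, in each replicate alone, in the stronger 50% of peaks and, for the promoters, at 200 bp. Every ranked peak past the IDR limit, 1000 bp, peak overlap and all genes as background could not remove a call, and added none. CTCF kept its passing promoter summit in the conservative list, in replicate 1 alone and at 200 bp. It was lost without replicate 1 and in the stronger 50% of peaks. The counts of genes were therefore 4 to 5 at promoters and 5 to 6 with bodies. The shared peaks stayed at 4 of 5 with summits within 100 bp or 50% reciprocal overlap. The median signal of the strongest promoter summit was 213 at 200 bp, where 5 of the genes had a summit, and 55.7 to 83.1 in the replicates alone, where the median over all genes was also lower (26.3 in each). With 50 bp to each side of the summit, 2 of 5 promoter summits held any motif in place of 4: CGATA was left at 2, and TATCGATA and the CTCF core were lost. Replicate 1 alone gave 3 of 5, with TATCGATA lost, and replicate 2 alone 3 of 4, with the CTCF gene not passing and a GAGAG match at 1. Depth is unknown, which limits what an absent summit can show.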

Other observations

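The 12 words of 8 bases with the largest excess in percentage points, within 50 bp of all other passing summits over flanks, were made of A and T alone. TTTAAAAA (5.21% of 4469 summits, 2.49% of flanks) had the largest such difference, though not the largest ratio, and was at none of the 7 insulator gene summits. AAAAATAT (4.81% and 2.77%) was at Cp190 and CTCF. At the Cp190 summit AAAATATT (4.56% and 2.6%) was also matched, in the same run of A and T bases as AAAAATAT, so these matches overlap. The BEAF-32, pita and proximal mod(mdg4) summits held 1 of the 12 each, while Chro and the distal mod(mdg4) summit held none.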
